A study of Caenorhabditis elegans with 2 samples.

Results

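The CDC-48 segregase genes of the nematode Caenorhabditis elegans are 5 of the 19973 protein-coding genes in the annotation, namely cdc-48.1, cdc-48.2, ufd-1, npl-4.1 and npl-4.2. They were chosen by the very strong signal of the promoter peak at cdc-48.1, so the values of that peak are given as a description with no test. The other 4 genes were listed together with cdc-48.1 as segregase genes. For each gene, every summit from 2 kb upstream of the annotated 5′ end to the 3′ end was taken from 4 region lists.

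ChIP-seq, the sequencing of DNA that is immunoprecipitated together with a protein, was used to map where NHR-47, a nuclear hormone receptor, sits on the genome. Whole hermaphrodite L1 larvae were collected 6 h after synchronization by starvation following bleaching. All samples came from strain OP481, a single transgenic line that carries the unc-119(tm4063) III mutation and wgIs481, a transgene for NHR-47 that is tagged at its C-terminus with GFP and FLAG. There were 2 biological replicates of this 1 group and no second condition; the labels describe an anti-GFP immunoprecipitation and also name nhr-47 as the antibody target.

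CDC-48, known as p97 or VCP in mammals, is an AAA ATPase that pulls ubiquitinated proteins out of complexes and membranes and unfolds them, often before their destruction by the proteasome. UFD-1 and NPL-4 form a heterodimer that hands ubiquitinated substrates to CDC-48. In worms this machinery is known for clearing misfolded proteins from the endoplasmic reticulum (ER-associated degradation, ERAD) and for extracting proteins from chromatin during the cell cycle. Worms carry a pair of CDC-48 genes and a pair of NPL-4 genes.

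Each replicate had a relaxed list of 30000 regions, and both replicates pooled had a like list. The authors also gave a list thresholded by the irreproducible discovery rate (IDR), a measure of how alike regions rank between lists. A place in the thresholded list does not mean that a peak ranked alike in these 2 replicate lists, or was in both. The thresholded list held 5357 peaks, which were the 5357 strongest regions of the pooled list. Signal is the authors' score for each region and is not scaled between lists, so replicate signals were also divided by the median over the 5312 thresholded peaks found in both replicates. These medians were 66.8 in replicate 1 and 92.2 in replicate 2, and across those peaks the log2 ratio of the scaled replicates had an SD of 0.50. The lists hold no read counts, so the depth is unknown. Coordinates are on ce11 (WBcel235), counted from 1.

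The 5 genes differed widely. The promoter of cdc-48.1 carried one of the strongest peaks of the list, cdc-48.2 had a weak thresholded peak well upstream, ufd-1 had a region below the threshold at its 5′ end, and npl-4.1 and npl-4.2 had no summit of the pooled list in their windows. A thresholded summit thus lay in the windows of 2 of the 5 genes, and one lay in the windows of 24.2% of all protein-coding genes. A promoter window was also used, which reached 500 bp upstream and 200 bp into the gene. In it the thresholded list had a summit at 1 of the 5 genes, against 12.8% of all protein-coding genes, and the pooled list at 3 of the 5, against 28.3%. The replicate lists had one there at 3 of the 5 in replicate 1, against 29.8%, and at 2 of the 5 in replicate 2, against 28.6%. In the full windows the pooled list had a summit at 3 of the 5, against 47.5% of all protein-coding genes. The shares were 3 of 5 against 54.8% in the replicate 1 list and 4 of 5 against 48.2% in the replicate 2 list. Since cdc-48.1 was chosen for its peak and the other genes are few, these counts are given as a description only. The windows of the 5 genes ran from 3483 to 5372 bp, and the median window of all protein-coding genes was 4027 bp.

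**Figure D1:**
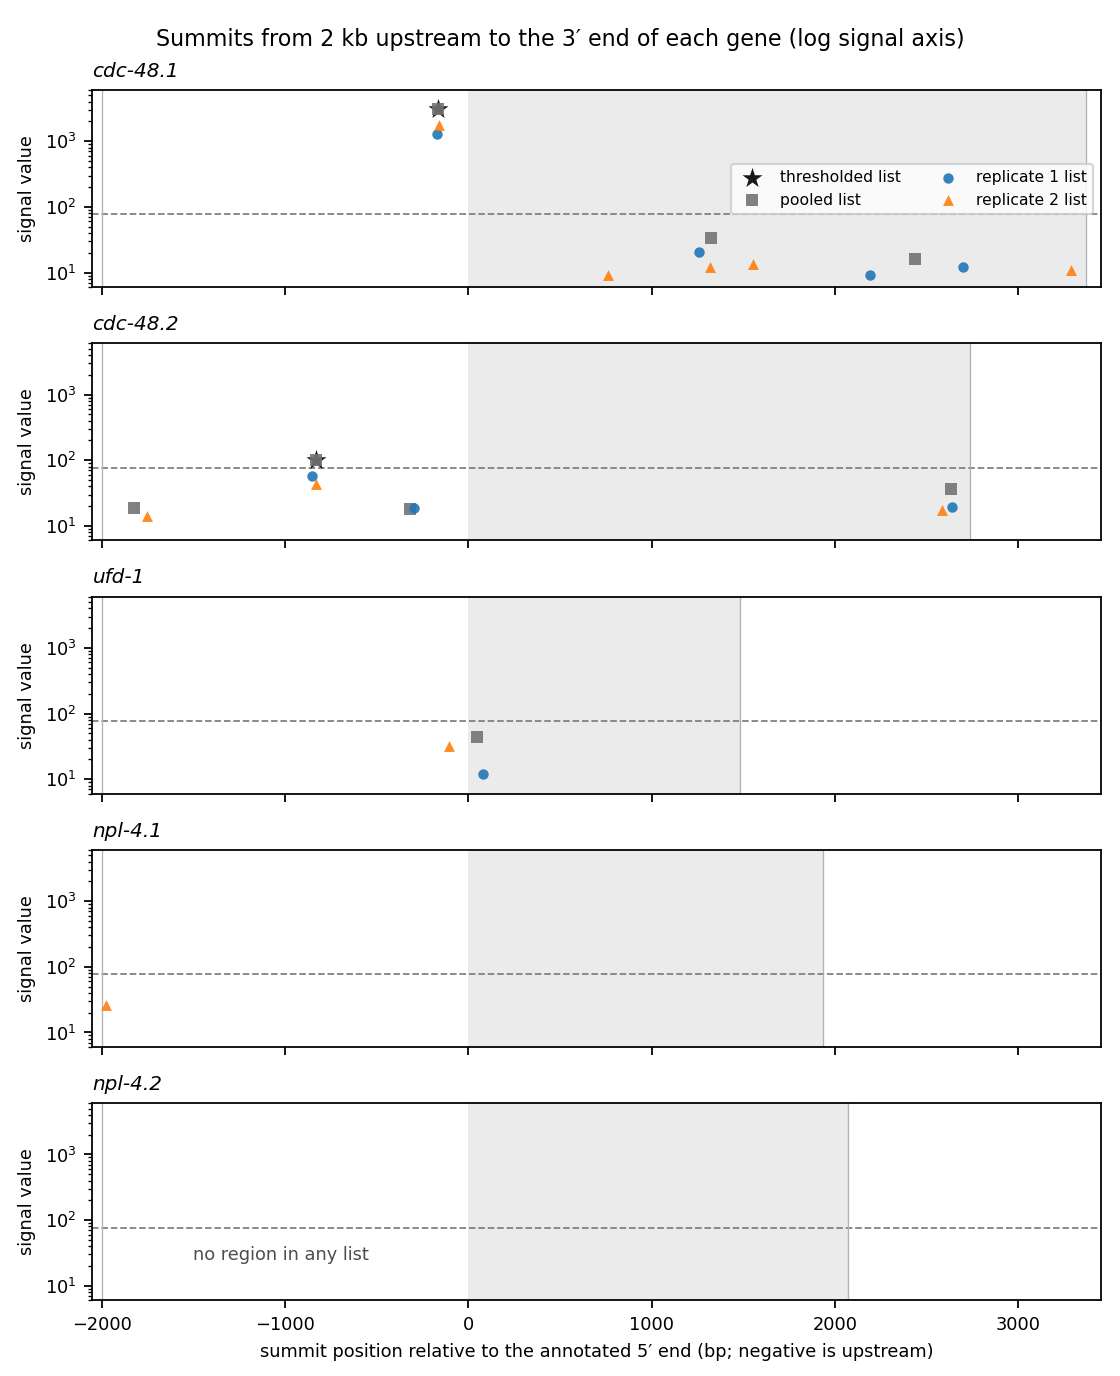
Each panel shows 1 gene, with the summit position relative to the annotated 5′ end in bp on the horizontal axis and the signal value on a log vertical axis. Grey shading is the gene body, markers are the lists, and the dashed line is the weakest thresholded signal of 77.0, which applies to the thresholded and pooled lists. The summits 160 to 170 bp upstream of cdc-48.1 stand above all other points, and npl-4.2 has no region in any list.

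The ATPase gene cdc-48.1 (WBGene00007352) lies on the minus strand at chrII:10560036-10563407. Its peak covered chrII:10563355-10563805 and had its summit at 10563572, in intergenic sequence 165 bp upstream of the 5′ end. The next gene on that side, C06A1.6, is on the same strand, and 704 bp separate it from cdc-48.1. No other protein-coding gene had its 5′ end nearer to the summit. The summit also lies 508 bp upstream of C06A1.9, a small nucleolar RNA gene inside cdc-48.1. The sequence within 100 bp of this summit is shown on the strand of the gene, beside that of the cdc-48.2 peak. These 2 peaks differ in strength and in distance from the 5′ end of their own gene. Both sequences are from the RefSeq copy of WBcel235. The summit is the middle base of each, and capitals mark the matches to the motifs named after them.
cdc-48.1, chrII:10563472-10563672, minus strand: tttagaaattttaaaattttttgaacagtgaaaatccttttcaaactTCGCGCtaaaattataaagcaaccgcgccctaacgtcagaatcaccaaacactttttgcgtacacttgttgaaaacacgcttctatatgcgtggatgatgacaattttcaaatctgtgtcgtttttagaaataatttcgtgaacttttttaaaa
cdc-48.2, chrII:8137563-8137763, plus strand: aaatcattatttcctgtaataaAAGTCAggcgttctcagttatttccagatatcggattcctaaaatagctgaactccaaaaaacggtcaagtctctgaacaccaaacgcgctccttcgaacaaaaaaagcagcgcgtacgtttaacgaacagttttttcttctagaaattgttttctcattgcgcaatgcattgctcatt

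The cdc-48.1 peak had a signal of 3062 in the thresholded list, where it ranked 6 of 5357. In the pooled list it ranked 6 of 30000. Its signal was 1297 in replicate 1 (rank 7) and 1781 in replicate 2 (rank 5). Both replicates thus placed it among their first 7 regions, with summits 10 bp apart. For comparison, the median distance between replicate summits over thresholded peaks was 18 bp. After scaling, the signal was 19.4 times the median peak in replicate 1 and 19.3 times in replicate 2, a mean of 19.4 ± 0.0718 (SD, n = 2). The log2 ratio of replicate 1 to replicate 2 was 0.0076, smaller in size than that of all but 1.71% of thresholded peaks. That share is over peaks of all strengths. Among the promoter peaks next to it in rank, the SD of the scaled signal ran from 0.00144 at rpl-20 to 1.65 at rpl-35. Such close agreement was thus not particular to cdc-48.1. The −log10 of its q value was 3.88, the highest value in that list and one that 70.1% of its peaks share. None of the 50-base stretches inside this peak occurs elsewhere in the nuclear genome.

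The promoter peaks next to it in rank lay mostly at genes of large ribosomal subunit proteins. Peaks with a summit in no promoter window were passed over, so the ranks given here have gaps. Just above it were rpl-3, tasp-1, named for the protease taspase, and the peak in the promoter windows of rpl-20 and Y17G9B.5. They ranked 1, 3 and 4 in the pooled list, in replicate 1 and in replicate 2 alike. Just below it came rpl-35 at rank 8, the peak shared by rpl-15 and K11H12.8 at rank 16 and tos-1 at rank 18. The likeness measure was the pooled rank by signal, over 2 replicates of 1 stage. The peak of rpl-35 ranked 6 in replicate 1, above cdc-48.1, and 12 in replicate 2, below it, so these 2 neighbours did not differ beyond their spread. The others kept their place above or below cdc-48.1 in both replicates.

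**Figure D2:**
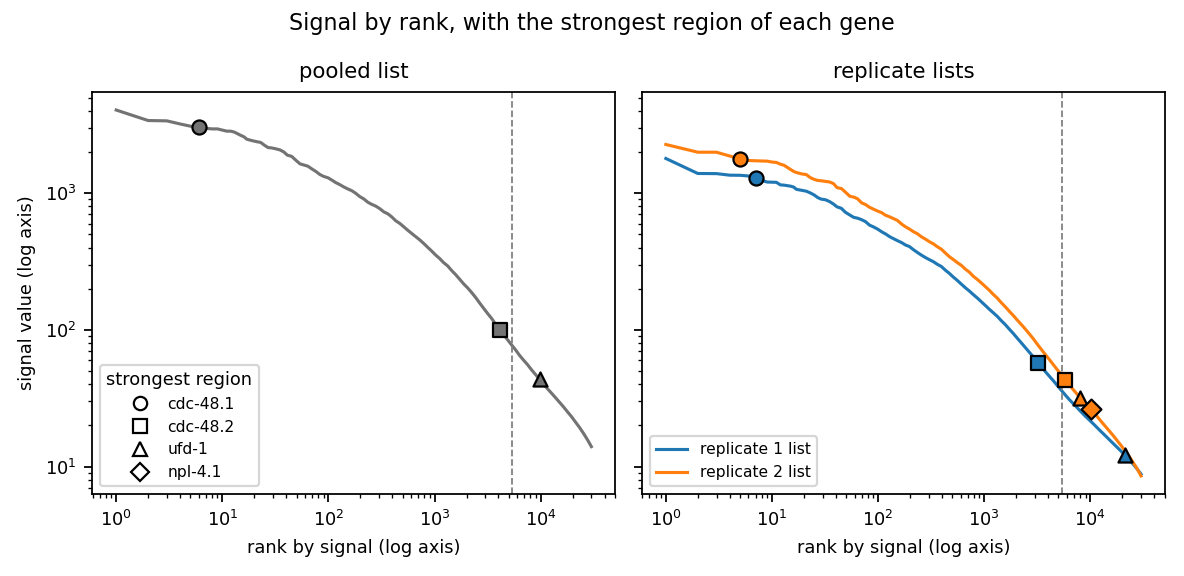
Signal value against rank by signal, both on log axes, for the pooled list (left) and the replicate lists (right), with the strongest region of each gene marked and a dashed line at rank 5357. The cdc-48.1 marker sits at ranks 6, 7 and 5, and the cdc-48.2 marker lies inside rank 5357 in the pooled list and in replicate 1 but at 5777 in replicate 2.

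All other summits in the cdc-48.1 window were weak and lay in the gene body. A thresholded peak of signal 79.3 had its summit just past the 3′ end, outside the window, and overlapped the window by 85 bp. The pooled list had a second summit 1323 bp downstream of the 5′ end, in an intron, with a signal of 33.7 and rank 12935. That is 90.8-fold below the promoter peak. By nearest summit, it matched a region of signal 20.4 in replicate 1 and of signal 12.1 in replicate 2, 0.218 ± 0.123 of the median peak (SD, n = 2). Both of these replicate summits lay in exons. The pooled region also overlapped a replicate 2 region of signal 13.7 with a summit farther away. The weakest pooled summit, 2438 bp downstream in an exon, had a signal of 16.0 and rank 27224. That summit lies 35 bp upstream of C06A1.8, a small nucleolar RNA gene in an intron of cdc-48.1. Its region overlapped regions of replicate 1 only, with signals of 9.31 (the nearer summit) and 12.0. Counting the promoter peak, replicate 1 listed 4 regions in the window and replicate 2 listed 5. Apart from the promoter peak, the largest of these had a signal of 20.4 in replicate 1 and 13.7 in replicate 2.

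The paralog cdc-48.2 (WBGene00008053), on the plus strand at chrII:8138496-8141230, encodes the other CDC-48 ATPase. The coding sequences of cdc-48.1 and cdc-48.2 were identical at 76.6% of 2409 aligned bases, and 0% of the 50-base stretches in either gene body occur elsewhere in the nuclear genome, so stretches of that length can be placed at one or the other. The thresholded peak in the cdc-48.2 window covered chrII:8137453-8137872, with its summit 833 bp upstream. That position is in the intergenic sequence between cdc-48.2 and the divergent gene ctns-1, which encodes the worm cystinosin, a lysosomal cystine transporter. The summit lies 745 bp from the 5′ end of ctns-1, so it is nearer to ctns-1 than to cdc-48.2.

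The cdc-48.2 peak had a signal of 99.6 and ranked 4155 of 5357, and the signal of the cdc-48.1 peak was 30.7-fold higher in the same list. Its signal was 57.4 in replicate 1 (rank 3228) and 43.3 in replicate 2 (rank 5777). Replicate 1 thus had it inside, and replicate 2 outside, a number of regions equal to the thresholded list. After scaling it stood at 0.860 in replicate 1 and 0.469 in replicate 2, a mean of 0.665 ± 0.276 (SD, n = 2). Its log2 ratio between replicates of 0.87 was exceeded in size by 7.34% of thresholded peaks. The replicate summits were 23 bp apart. The weakest thresholded peak had a signal of 77.0, so this peak was 1.29-fold above the edge of the list.

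Weaker regions lay at 3 other places in the cdc-48.2 window. The summit nearest the gene, 319 bp upstream, had a pooled signal of 18.0 and rank 24666, and it overlapped a region of replicate 1 (19.0) but none of replicate 2. A summit 2635 bp downstream, in the last exon, had a pooled signal of 36.0 and rank 11977. It was found in both replicates, at 0.241 ± 0.0689 of the median peak (SD, n = 2). The 3′ end of this exon overlaps the 3′ end of ints-11, the gene of the catalytic Integrator subunit, on the other strand. The fourth summit, 1823 bp upstream, lay in an exon of ctns-1 and had a pooled signal of 18.9, with a region in replicate 2 (13.9) and none in replicate 1.

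**Figure D3:**
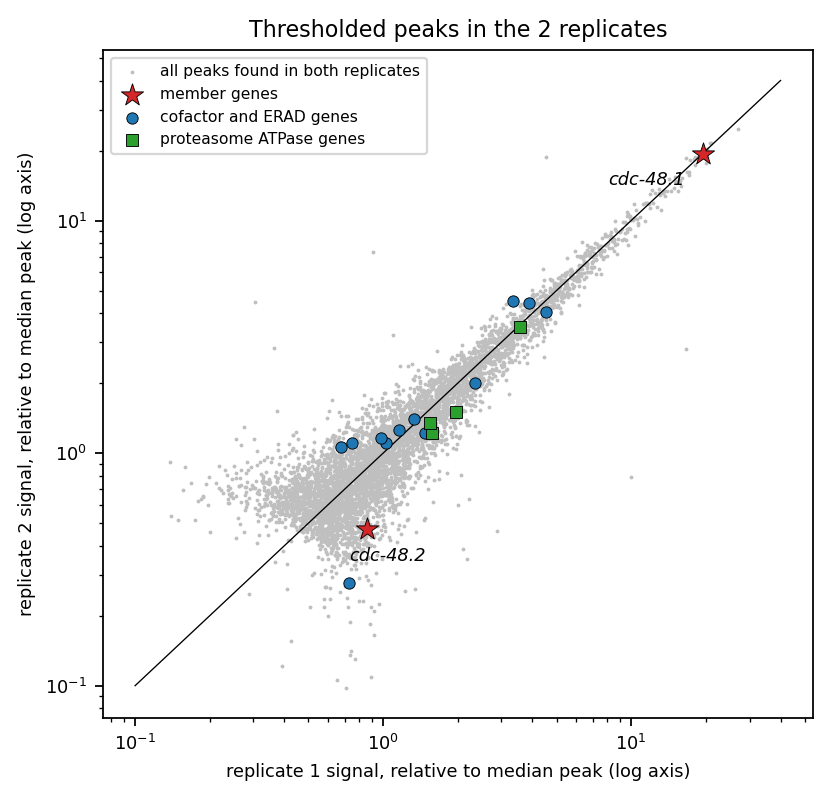
Replicate 1 against replicate 2 signal of thresholded peaks, each relative to the replicate's median over peaks found in both and on log axes, with the diagonal drawn. Red stars are cdc-48.1 and cdc-48.2, blue circles the cofactor and ERAD genes and green squares the proteasome ATPase genes; cdc-48.1 sits on the diagonal at 19.4 and 19.3, and cdc-48.2 lies below it at 0.860 and 0.469.

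Neither thresholded summit held a match to any of 6 motifs within 50 bp. The motifs, searched on both strands and none contained in another, were the nuclear receptor motif AGGTCA, its variant AAGTCA, and then GACGCA, the repeat GAGAGA, as well as GCGCGA and finally TTTCAG. In the order given, 2.67%, 3.70%, 14.6%, 25.1%, 6.14% and 7.88% of the 5357 thresholded windows of that length held the motif. Within 100 bp of the summit, a reach chosen after seeing the data, cdc-48.1 held GCGCGA on the strand opposite to the gene, starting 53 bp upstream of the summit. The cdc-48.2 window held AAGTCA 78 bp upstream of its summit. Of all thresholded windows with that reach, 9.26% held GCGCGA and 8.05% held AAGTCA. The windows within 50 bp of the summits of cdc-48.1 and cdc-48.2 had GC contents of 41.6% and 43.6%, against a median of 45.5% for all thresholded summits. At the weaker cdc-48.2 summits, windows within 50 bp held AGGTCA at the summit in the last exon, starting 2 bp from it. They held GAGAGA at the summit 319 bp upstream and TTTCAG at the summit in the ctns-1 exon. The weaker pooled summits of cdc-48.1 and the pooled summit of ufd-1 held none of the motifs. The shares given are for thresholded windows, so the matches at weaker summits have no like background. All these matches describe the letters only.

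The adaptor gene ufd-1 (WBGene00006733), on the minus strand at chrIV:12329408-12330890, encodes the subunit that binds ubiquitin chains together with NPL-4. No thresholded summit lay in its window, and the nearest was 4009 bp upstream, nearest to the 5′ end of F19B6.1. That gene lies on the same strand, with 85 bp between it and ufd-1. The pooled list held 1 region at ufd-1, covering chrIV:12330633-12331052, with its summit 47 bp downstream of the 5′ end, in the first exon. Its signal was 43.5, its rank 9779 and the −log10 of its q value 1.76. This was the strongest region at any of the 5 genes that missed the threshold, at 0.565 of the weakest thresholded signal.

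The replicates differed at ufd-1. The signal was 12.1 in replicate 1 (rank 21261), with the summit 79 bp downstream of the 5′ end. It was 31.8 in replicate 2 (rank 8037), with the summit 104 bp upstream. These summits were 183 bp apart, and the summit of replicate 2 lay in an exon of F19B6.1. After scaling, the values were 0.181 in replicate 1 and 0.345 in replicate 2, a mean of 0.263 ± 0.116 (SD, n = 2). In order of scaled signal, cdc-48.1 was well apart from cdc-48.2, while the lowest replicate value of cdc-48.2 (0.469) exceeded the highest of ufd-1 (0.345) by less than the SD of cdc-48.2.

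The genes npl-4.1 (WBGene00019120, chrII:5631351-5633284) and npl-4.2 (WBGene00019121, chrII:5622889-5624959) encode the other subunit of the adaptor. They lie on the plus strand, with their 5′ ends 8462 bp apart. Neither had a summit of the thresholded or pooled list in its window. The replicate 2 list held 1 summit in the npl-4.1 window, with a signal of 26.2 and rank 10083. This summit was 1977 bp upstream, in an exon of F59E12.6 and close to the edge of the window. The nearest pooled summit was just past that edge, 2015 bp upstream of npl-4.1, with a signal of 34.8 and rank 12465, and its region reached 195 bp into the window. For npl-4.2 no list held a region in the window, and the nearest pooled summit was 2302 bp upstream (rank 19620). The nearest thresholded summits lay 18280 bp from the 5′ end of npl-4.1 and 12512 bp from that of npl-4.2.

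The pair of npl-4 genes is nearly identical in sequence, and so is the DNA in front of them. Their coding sequences differed at 8 of 1587 aligned bases (99.5% identity). The 500 bp upstream of the 5′ ends held no difference, and the identical run went on to 1325 bp upstream. Both genes have a divergent neighbour with its 5′ end close by, eif-3.L at 406 bp from npl-4.2 and F59E12.6 at 400 bp from npl-4.1. The run of 100 bases just before the annotated 5′ end is shown once, since it was the same at chrII:5631251-5631350 and chrII:5622789-5622888. The first 80 coding bases of each gene follow, with the single base that differs in capitals.
npl-4.1 and npl-4.2, upstream, plus strand: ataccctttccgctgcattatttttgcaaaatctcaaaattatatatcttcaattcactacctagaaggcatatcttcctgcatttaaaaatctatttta
npl-4.1, coding, chrII:5631359-5631438, plus strand: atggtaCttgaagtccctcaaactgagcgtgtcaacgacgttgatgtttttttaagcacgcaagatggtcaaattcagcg
npl-4.2, coding, chrII:5622897-5622976, plus strand: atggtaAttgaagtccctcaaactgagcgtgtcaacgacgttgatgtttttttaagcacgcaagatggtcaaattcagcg

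Most of both windows could not be told from other sequence by short stretches. Of the 50-base stretches in the window, 73.3% at npl-4.1 and 72.0% at npl-4.2 occur elsewhere in the nuclear genome on either strand. With 30-base stretches the shares were 76.0% and 75.3%. The share was 0% for cdc-48.2 and ufd-1 with 50 bases, and 7.85% for cdc-48.1, whose recurring stretches began between 859 and 1854 bp upstream, outside the peak. In the promoter window, 92.3% of stretches recurred at npl-4.1 and at npl-4.2, and likewise at eif-3.L, against 0% at cdc-48.1, cdc-48.2 and ufd-1.

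Promoters of this kind rarely had a summit in any list. Of the 275 protein-coding genes with 90% or more recurring stretches in the promoter window, 0 had a thresholded summit there and 2 (0.727%) had a pooled one. All genes of the class were counted, so the 0 is its full count. If they were a random sample, counting error alone would allow a share of up to 1.09%. That limit treats the genes as independent, though genes such as npl-4.1 and npl-4.2 share their promoter sequence. The shares were 6.33% thresholded and 13.5% pooled for the 1359 genes with 10% to under 90%, and 13.5% and 29.8% for the 18339 genes with under 10%. The limits of these classes were set after seeing the data, and the classes also differ in the kinds of gene they hold. How the authors treated reads that map to several places is not given in the sources used here. The part of repeated sequence in the lack of pooled summits at npl-4.1 and npl-4.2 was not tested, and the lists do not show whether NHR-47 is absent there.

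**Figure D4:**
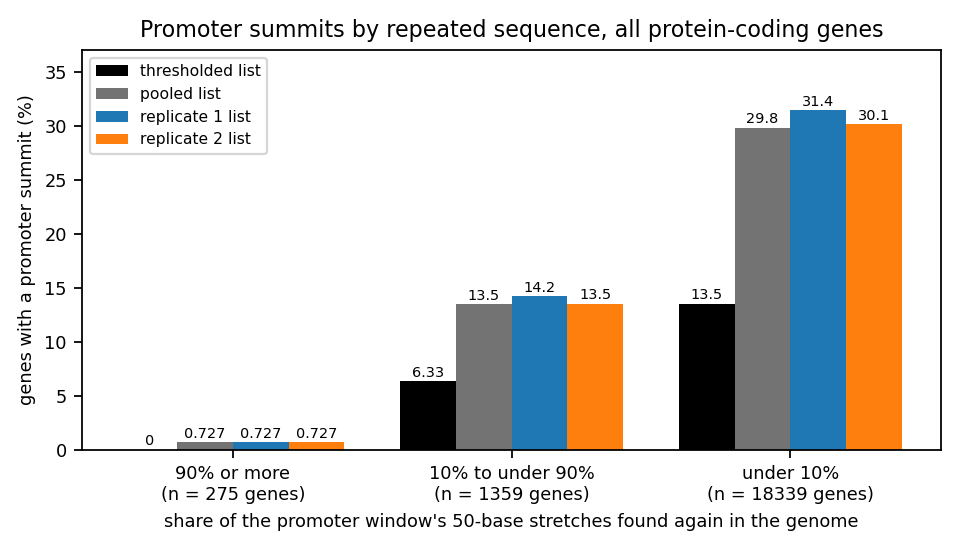
Bars give the percentage of protein-coding genes with a summit in the promoter window in each list, by the share of that window's 50-base stretches found again in the genome. The first class, which holds npl-4.1 and npl-4.2, has 0% thresholded and 0.727% in the other lists, against 13.5% thresholded and 29.8% pooled in the class under 10%.

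Genes of other CDC-48 cofactors and of ERAD often had a summit in the window. The list of 19 genes also counts cdc-48.3, which encodes a further CDC-48-like ATPase and not a cofactor or ERAD factor. Of these 19, 12 (63.2%) had a thresholded summit from 2 kb upstream to the 3′ end, against 24.2% of all protein-coding genes. In the promoter window 6 (31.6%) had one, against 12.8%. The list was chosen with earlier results of these data known, and no test was made of it. The window lengths of these genes, and of the proteasome ATPase genes below, were not compared with those of all genes. The median of their strongest thresholded signals was 203, beside 211 over all genes with a thresholded summit.

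The strongest of these peaks were at genes for cofactors that bind CDC-48 or its substrates. That of ufd-3, a homolog of mammalian PLAA, had a signal of 677 and ranked 390, with its summit 127 bp upstream and a scaled signal of 4.28 ± 0.345 (SD, n = 2). The peak at ubxn-2, a homolog of the p47 adaptor, had a signal of 667 and ranked 396, with a scaled signal of 4.15 ± 0.371 (SD, n = 2). At ubql-1, the ubiquilin gene whose product carries ubiquitinated proteins to the proteasome, the summit lay 501 bp upstream with a signal of 641 and a scaled signal of 3.91 ± 0.823 (SD, n = 2). At ubxn-3, a homolog of FAF1, it lay 730 bp upstream with a signal of 344 and a scaled signal of 2.18 ± 0.250 (SD, n = 2).

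The other 8 genes with a thresholded summit had signals from 78.1 at sel-1 to 220 at cup-2. They were the ERAD genes sel-1, cup-2 (a derlin) and marc-6 (a membrane ubiquitin ligase), the ubiquitin chain factor ufd-2, the UBX domain genes ubxn-1 and ubxn-6, the deubiquitinase gene atx-3 and the shuttle gene rad-23. At sel-1, whose product is part of the ERAD ubiquitin ligase, the scaled signal was 0.730 in replicate 1 and 0.275 in replicate 2. Of these summits, those at ubxn-1, ubxn-6, atx-3, rad-23 and cup-2 were nearest to the 5′ end of another gene, namely tipn-1, eif-1.A, F28F8.9, rpn-12 and tag-353. At ubxn-4, sel-11 and cdc-48.3 the regions stayed below the threshold, with pooled signals of 65.5, 36.6 and 23.1. The genes ubxn-5, chn-1, png-1 and der-2 had no pooled summit in the window; chn-1 had a summit 69 bp upstream in replicate 1, at rank 4771.

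Like CDC-48, the ATPases at the base of the proteasome's regulatory particle unfold ubiquitinated proteins. Of their 6 genes, 4 (66.7%) had a thresholded summit in the window, against 24.2% of all protein-coding genes, and 3 had one in the promoter window, against 12.8%. The strongest was at rpt-2, with a signal of 558, rank 526 and a scaled signal of 3.51 ± 0.0594 (SD, n = 2). Signals were 275 at rpt-4, where the summit was nearest to nfyc-1, 220 at rpt-6, where it was nearest to the histone gene his-72, and 216 at rpt-1. The genes rpt-3 and rpt-5 had no pooled summit in the window; rpt-5 had one in replicate 1 (signal 49.3, 511 bp upstream). In the promoter windows of both genes, 0% of the 50-base stretches recur, and the same holds for ubxn-5, png-1 and der-2 named above.

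**Figure D5:**
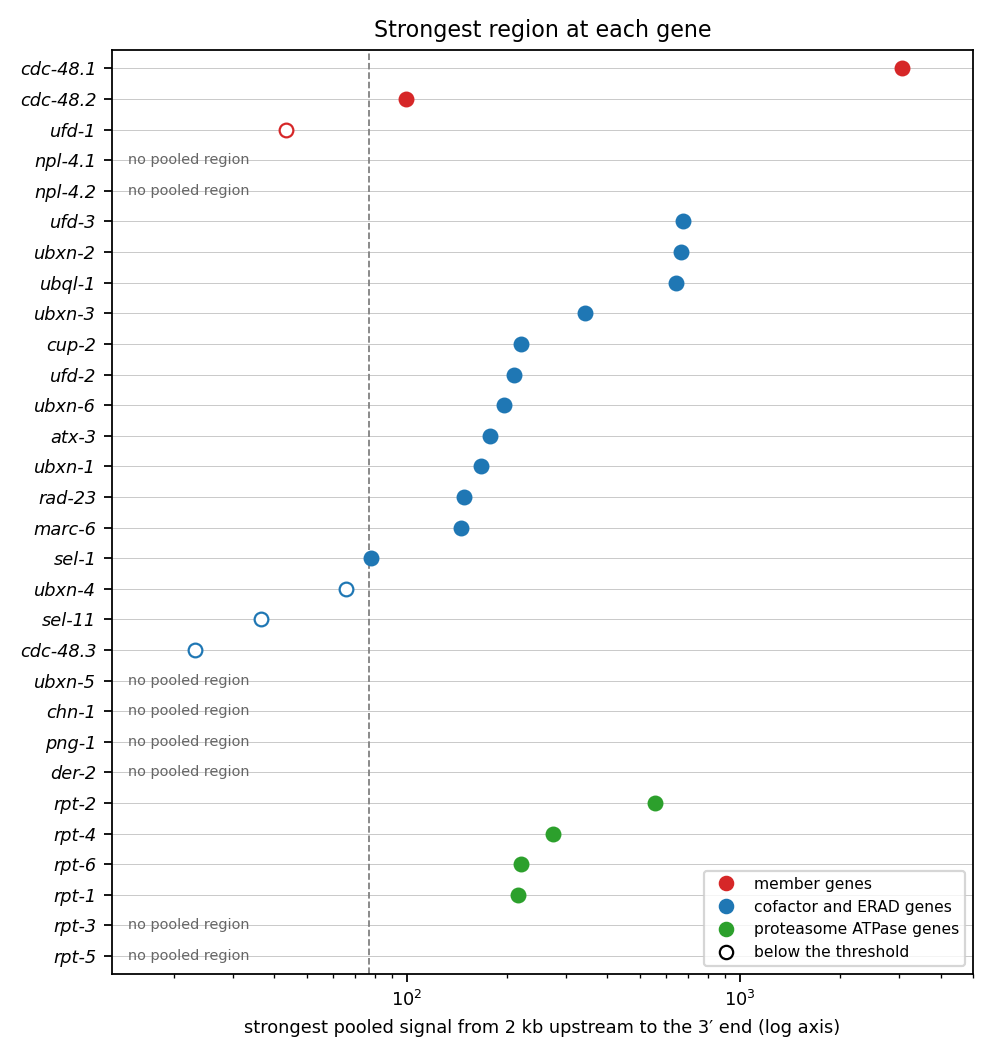
The strongest pooled signal in the window of each gene on a log axis, with the 5 segregase genes in red, the cofactor and ERAD genes in blue and the proteasome ATPase genes in green. Open circles are regions below the threshold and the dashed line is the weakest thresholded signal of 77.0; the point of cdc-48.1 at 3062 lies right of all others shown, of which the next is ufd-3 at 677.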

How the data were processed

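ChIP-seq of 2 biological replicates was used, grouped by the labels into 1 group. The region lists are in narrowPeak layout. Column 7 is the signal value, a score left by the authors on the caller's own scale, and column 9 of the deposited lists is the −log10 of the q value. Per the submitters' file index, the lists were called against a control and thresholded by IDR. No source used here names the aligner, the caller or the cutoff of the IDR. The 4 ce11 lists were used with WBcel235 and the Ensembl release 115 annotation; every region lay within the reference chromosomes. The ce10 lists were not used, and there were 0 unused per-sample columns.

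Ranks ran from the highest signal down. A replicate region was matched to a pooled one by an overlap of at least 1 bp and the nearest summit. Assignment of summits to genes was tested on simulated data. Repeated stretches were counted over the 6 nuclear chromosomes, and coding sequences were aligned globally with Biopython 1.88. The depth is unknown, and floors cover counting error only. Alternatives changed the window, the threshold, the scaling, the matching and the replicate.

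The members and lists were chosen with earlier results of these data known. Named were the 5 genes, a list of 19 cofactor and ERAD genes with values for the strongest 4, the promoter genes of the 3 promoter summits on either side of cdc-48.1 in rank, the 6 proteasome ATPase genes, and genes nearest to a reported summit. For the rank neighbours, summits in no promoter window were left out. The values for sel-1 by replicate and the remaining cofactor signals were added after their values were seen. No test was made, as there is 1 group and the rule used these lists.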

Additional observations from a re-analysis of the deposited data

How the results depend on the processing

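The peak at cdc-48.1 changed little: its scaled signal was 19.1 with each replicate divided by the median of its 5357 strongest regions, and 19.3 to 19.4 when either replicate was left out. Its rank ran from 5 to 7 over the single replicates. The count of 2 segregase genes with a thresholded summit dropped to 1 with an upstream reach of 500 bp, in the promoter window, among the thresholded peaks above the median signal, and when a summit counted only for the gene whose 5′ end was nearest; in each of these cdc-48.2 was the gene lost, since its summit is 833 bp upstream, ranks 4155 and is nearer to ctns-1. It ranged from 1 to 2 when a replicate was left out: without replicate 1, cdc-48.2 ranked 5777 in the remaining list and was lost. The count of 12 cofactor and ERAD genes was 6 with an upstream reach of 500 bp and 6 in the promoter window. It was 9 among the stronger peaks, and 11 to 13 when a replicate was left out. The setting by the nearest 5′ end was not run for these genes. Fewer of all protein-coding genes were also counted under these settings, 17.2% with 500 bp, 12.8% in the promoter window, 15.4% among the stronger peaks and 16.6% by the nearest 5′ end. No paired analysis was possible because there was 1 group. The depth of the libraries is unknown, so how far weak regions such as those at ufd-1 are set by depth was not tested.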
